A study of Mus musculus with 12 samples.

Results

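The colony-stimulating factors and their receptor chains were followed through mouse spinal cord with and without experimental autoimmune encephalomyelitis (EAE), an induced autoimmune inflammation of the central nervous system used as a model of multiple sclerosis. The set comprised 7 genes of the 54532 in the count table, picked by symbol: the ligands Csf1, Csf2 and Csf3 and the receptor chains Csf2ra, Csf2rb, Csf2rb2 and Csf3r. RNA from whole spinal cord had been sequenced in 12 libraries. Each of the 4 groups held 3 biological replicates: littermate controls (genotype labelled wt) and Drd2mGFAP conditional knockouts (cKO), each without disease (basal) and at day 17 of EAE. All mice were C57BL/6 and 2 to 3 months old. The labels name the dopamine receptor gene Drd2 as the target and mGFAP in the allele's name; the Cre line, the cells in which it acts and the immunisation are not given in the sources used here.

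Csf2 encodes GM-CSF, a cytokine made mainly by activated T helper cells in EAE, which acts on monocytes, macrophages and dendritic cells. Its receptor pairs a ligand-specific alpha chain (Csf2ra) with a signalling beta chain (Csf2rb) that the receptors for IL-3 and IL-5 share; mice carry in addition the close copy Csf2rb2, which serves the IL-3 receptor. Csf3 encodes G-CSF, the main growth factor of neutrophils, and Csf3r its receptor, which pairs with itself. Csf1 encodes M-CSF, which through the receptor Csf1r, shared with IL-34, maintains microglia and macrophages.

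Both beta chain genes lie side by side on chromosome 15 and resemble each other closely. In GENCODE M21 (mm10) their coding sequences were 95.2% identical over 2628 aligned bases. Of all 50-base windows of the Csf2rb transcript, 18.9% also occurred in that of Csf2rb2, and of 100-base windows 7.16%. The coding stretch of 60 bases in which they differed most lay in exon 4 of each gene, at chr15:78338893-78338952 on the plus strand for Csf2rb and chr15:78294379-78294438 on the minus strand for Csf2rb2. It is shown because reads from such stretches tell the copies apart; capitals mark the 13 bases that differ.
Csf2rb: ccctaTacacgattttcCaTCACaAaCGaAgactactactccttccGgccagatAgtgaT
Csf2rb2: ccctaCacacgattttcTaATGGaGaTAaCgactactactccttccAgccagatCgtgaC
The longest identical coding run held 242 bases, in exon 14 of both genes. Read length and the treatment of reads that fit several places are not given in the sources used here, so how reads were divided between Csf2rb and Csf2rb2 is uncertain.

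RefSeq promoter windows (GRCm38.p6; 300 bases around the start site) were matched for 5 of the 7 genes, all but Csf3 and Csf2rb. The receptor genes Csf2ra, Csf2rb2 and Csf3r are shown because their RNA stood above every basal control library in every EAE control library. The ligand Csf1 stood in the same order, but its window is not printed. That order was found for 29.8% of all genes tested. Capitals mark each GAGGAA, the core letters bound by the myeloid factor PU.1, or its reverse complement TTCCTC. Csf2ra lies at chr19:61228369-61228668 on the minus strand, Csf2rb2 at chr15:78305672-78305971 on the minus strand and Csf3r at chr4:126024409-126024708 on the plus strand.
Csf2ra: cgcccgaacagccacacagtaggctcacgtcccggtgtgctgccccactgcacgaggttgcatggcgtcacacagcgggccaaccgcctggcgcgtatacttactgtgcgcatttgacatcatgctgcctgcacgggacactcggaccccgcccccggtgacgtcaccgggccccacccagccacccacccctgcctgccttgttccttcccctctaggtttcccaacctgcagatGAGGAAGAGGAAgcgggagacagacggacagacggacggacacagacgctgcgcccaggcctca
Csf2rb2: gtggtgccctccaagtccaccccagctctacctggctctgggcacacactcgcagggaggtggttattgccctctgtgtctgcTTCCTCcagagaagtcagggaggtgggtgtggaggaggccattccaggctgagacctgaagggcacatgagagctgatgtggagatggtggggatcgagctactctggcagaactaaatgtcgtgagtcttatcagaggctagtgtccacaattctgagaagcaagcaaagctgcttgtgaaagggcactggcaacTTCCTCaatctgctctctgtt
Csf3r: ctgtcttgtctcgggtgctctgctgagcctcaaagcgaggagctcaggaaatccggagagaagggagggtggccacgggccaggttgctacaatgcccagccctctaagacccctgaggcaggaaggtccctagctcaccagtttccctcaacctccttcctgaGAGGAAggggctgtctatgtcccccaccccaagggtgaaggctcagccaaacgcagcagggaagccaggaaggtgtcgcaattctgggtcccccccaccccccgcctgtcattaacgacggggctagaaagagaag
These letters occurred in 3 of the 5 windows, which are the 3 shown. On either strand they occurred in 28.3% of all 32851 windows of that length, so a match describes the window only. In Csf2ra they stood in tandem 14 and 8 bases before the start site (offsets -14 and -8). The Csf1 window held no GAGGAA but 1 NF-kB motif, found in 4.51% of windows, and the Csf2rb2 window held 1 STAT motif (TTCNNNGAA), found in 8.3%. The Csf2 window held none of the 3 motifs. It was set on a RefSeq start site 232 bases from the start of the gene as counted here, which it does not contain.

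Library totals ran from 15128913 to 17592105 counts. Drd2 was counted in every library, and its group means were not lower in the cKO than in controls: 19.4 to 26.5 CPM in control basal, 17.6 to 34.7 in cKO basal, 8.89 to 9.62 in control EAE and 6.73 to 19.4 in cKO EAE. The basal libraries held 0 counts of the Y-linked gene Ddx3y, whereas the EAE libraries held at least 1177 and at most 5 of Xist, so EAE and basal also differ in sex and those effects cannot be told apart. The library cKO basal 2 had counts in only 17220 genes; the remaining 11 libraries had counts in 24303 to 26056. The library cKO EAE 3 carried little inflammatory RNA: Cd74, the invariant chain of MHC class II, stood at 6.56 CPM against 340 to 2736 in the other 5 EAE libraries. Values without cKO basal 2 or cKO EAE 3 are therefore given beside the results that rest on them, a choice made after their values were seen. Since cKO EAE 3 stands apart by its inflammatory RNA, which is close to the outcome, a test without it conditions on that outcome and is no independent support. Levels below are CPM, counts scaled to a common library size with edgeR's TMM factors, and per-length levels are CPM per kb of the table's gene length.

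**Figure D1:**
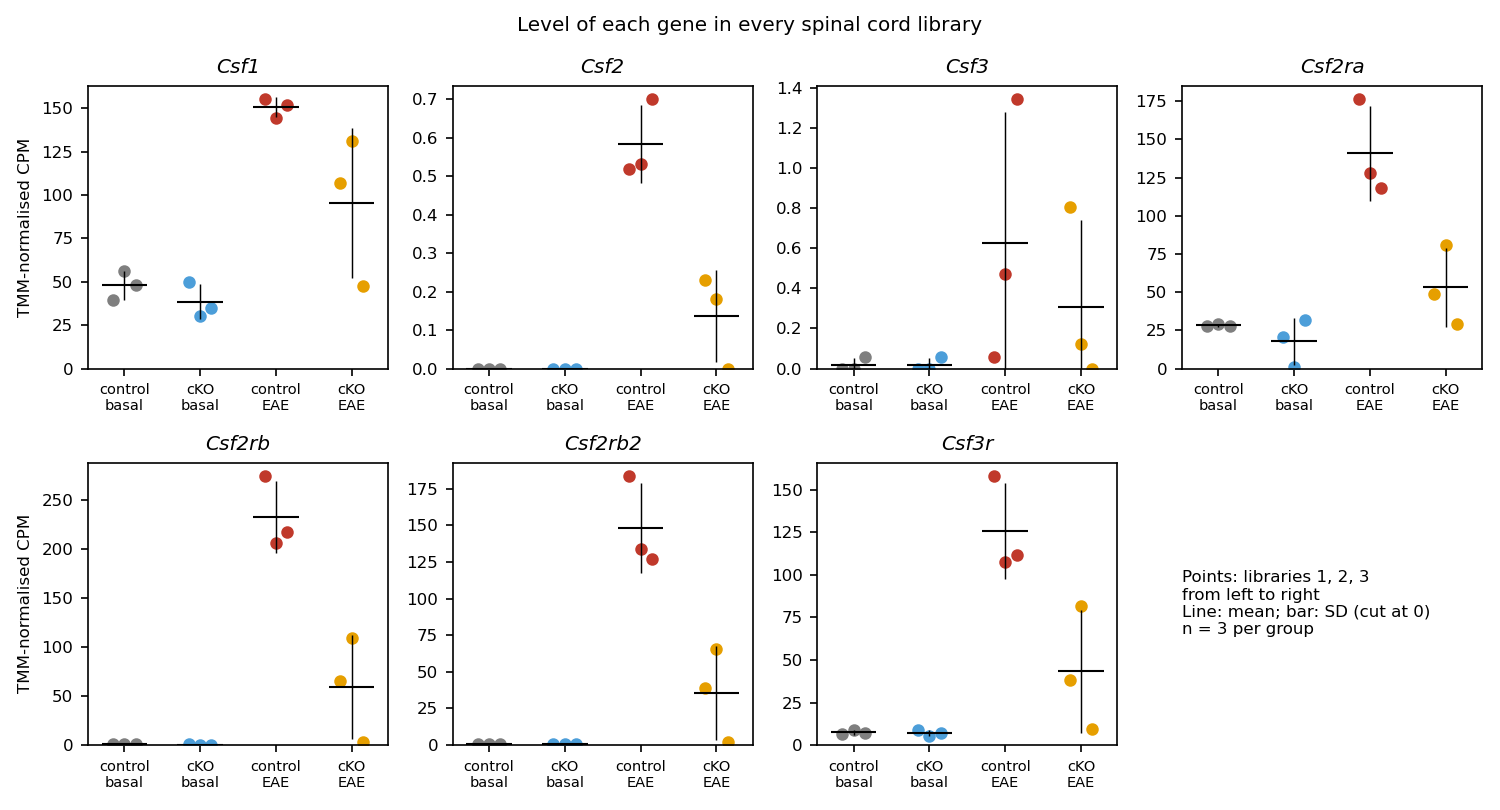
TMM-normalised CPM (y axis, linear, from 0) of the 7 genes in the 12 spinal cord libraries by group (x axis); points are libraries, lines group means and bars SD (n = 3). The 3 control EAE libraries lie above the 3 control basal libraries for every receptor chain and for Csf1, as for 29.8% of all genes tested. The library cKO EAE 3 is the lowest of the 6 EAE libraries for all 7 genes.

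Without disease the cord held the alpha chain and Csf1 RNA, little Csf3r and almost none of either beta chain. Per length, Csf2ra stood highest in the control basal libraries at 15.3 CPM per kb ± 0.49 (SD, n = 3), followed by Csf1 at 9.06 ± 1.61 and Csf3r at 2.05 ± 0.39. Csf2rb at 0.15 ± 0.07 and Csf2rb2 at 0.13 ± 0.02 CPM per kb did not differ beyond their spread. The first 3 levels did not overlap between libraries. For comparison, Csf1r stood at 16.0 ± 1.72 CPM per kb, close to Csf2ra. The order was the same at the top in the cKO basal libraries, but Csf2ra ranged there from 0.59 to 17.1 CPM per kb and overlapped Csf1 (5.75 to 9.43).

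At EAE in controls the beta chains reached per-length levels near those of Csf3r and Csf1. Csf2ra remained highest at 76.2 CPM per kb ± 16.7 (SD, n = 3), and Csf3r (34.9 ± 7.85), Csf2rb (32.0 ± 5.03), Csf2rb2 (31.3 ± 6.55) and Csf1 (28.5 ± 1.07) followed, each overlapping its neighbour in that order, although every Csf3r value lay above every Csf1 value. The same 5 genes stood at 28.7 ± 14.1 (Csf2ra), 18.03 ± 8.18 (Csf1), 11.98 ± 10.06 (Csf3r), 8.14 ± 7.30 (Csf2rb) and 7.51 ± 6.73 (Csf2rb2) CPM per kb in the cKO EAE libraries, where neighbours in that order overlapped. The table's length for Csf2rb, 7277 bases, exceeds the 4764 bases of its GENCODE transcript used above, which lowers its per-length level. Its place in these orders, and beside Csf2rb2 in the basal libraries, therefore depends on the length used.

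**Figure D2:**
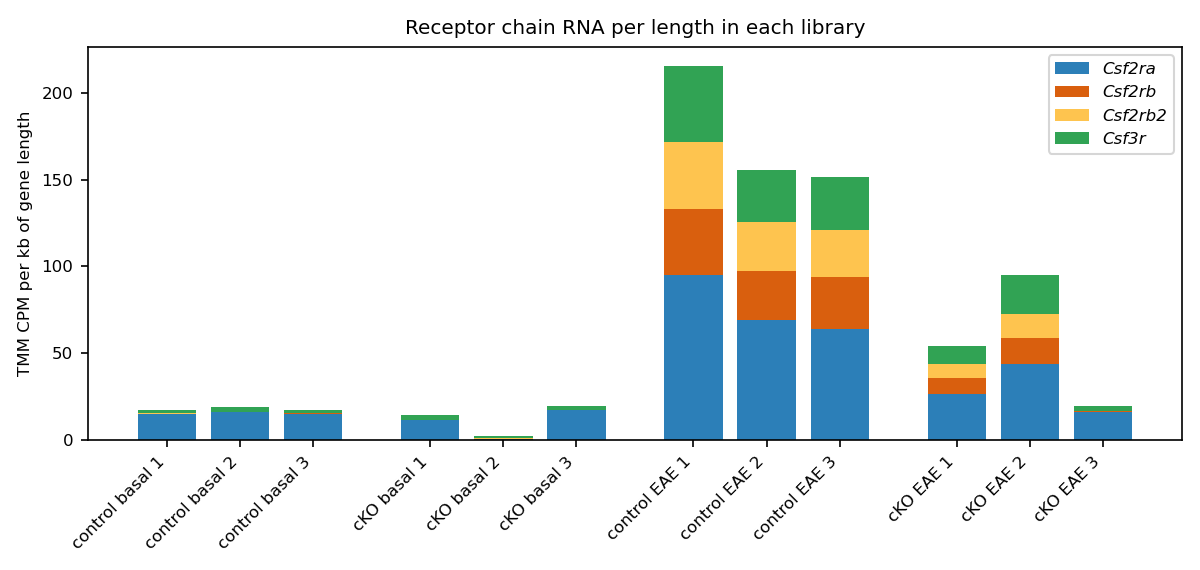
TMM CPM per kb of gene length (y axis, linear) of the receptor chains Csf2ra, Csf2rb, Csf2rb2 and Csf3r stacked for each of the 12 libraries (x axis). Csf2ra makes up nearly the whole basal column except in cKO basal 2, and the beta chains and Csf3r appear in the control EAE libraries and in cKO EAE 1 and 2, while cKO EAE 3 resembles the basal libraries.

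The beta chain Csf2rb (ENSMUSG00000071713, chr15:78325752-78353847) was counted at 0.57, 1.49 and 1.27 CPM in the control basal libraries and at 275, 207 and 218 CPM in control EAE. It rose by 7.69 on the log2 scale (SE 1.17, adjusted p = 0.00318, edgeR quasi-likelihood test). Its copy Csf2rb2 (ENSMUSG00000071714, chr15:78282507-78305721) was at 0.70, 0.61 and 0.50 CPM in control basal and at 184, 134 and 127 CPM in control EAE. For both copies every EAE library was above every basal library, an order found for 29.8% of all genes tested. Csf2rb2 rose by 7.93 (SE 1.04, adjusted p = 0.00318, edgeR). Counts of Csf2rb2 over Csf2rb lay between 0.58 and 0.67 in all 6 EAE libraries of both genotypes, cKO EAE 3 included.

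The G-CSF receptor Csf3r (ENSMUSG00000028859, chr4:126024550-126044440) stood at 6.36, 9.0 and 6.85 CPM in control basal and at 158, 107 and 112 CPM in control EAE. Every EAE library was above every basal library, as for 29.8% of all genes tested, and Csf3r rose by 4.09 on the log2 scale (SE 0.63, adjusted p = 0.00319, edgeR). M-CSF itself, Csf1 (ENSMUSG00000014599, chr3:107741048-107760469), was at 39.4, 56.4 and 47.8 CPM in control basal and at 156, 145 and 152 CPM in control EAE. It rose by 1.65 (SE 0.34, adjusted p = 0.00771, edgeR), the smallest of the 4 increases.

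The alpha chain Csf2ra (ENSMUSG00000059326, chr19:61224402-61228418) was at 27.7, 29.3 and 27.9 CPM in control basal and at 176, 128 and 118 CPM in control EAE. The EAE libraries were all above the basal libraries, an order found for 29.8% of all genes tested. With all 12 libraries the difference of 2.31 on the log2 scale (SE 0.79, 95% interval 0.58 to 4.05) missed the threshold at an adjusted p of 0.0703 (edgeR). The shared estimate of spread contained cKO basal 2, in which Csf2ra was counted at 1.09 CPM (12 counts) against 20.6 and 31.5 CPM in the other cKO basal libraries. Without that library the same difference was 2.32 with an SE of 0.31 and passed (adjusted p = 0.000445; 23.8% of all genes were then called higher), and it passed with the 6 control libraries alone (adjusted p = 3.86e-06) and in DESeq2 (adjusted p = 0.0139).

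The ligands Csf2 and Csf3 were near the limit of detection and fell short of the filter on low counts. Csf2 (ENSMUSG00000018916, chr11:54247271-54249667) had 0 counts in all 6 basal libraries, which allows at most 3 counts over a group, or 0.058 CPM in control basal. In control EAE it had 9, 9 and 12 counts, 10.1-fold higher than the floor of 3 counts over the group. That fold takes the EAE counts as exact and is not a lower limit on the difference. With no filter edgeR gave an adjusted p of 0.0283 for Csf2 in this comparison, and DESeq2 0.00451. The antisense gene Gm12223 overlaps Csf2 by 2068 bases; it had 7 counts over the control basal and 11 over the control EAE libraries, and the strand setting of the counting is not given, so the source of these few reads is uncertain. Csf3 (ENSMUSG00000038067, chr11:98701263-98703629) had 0, 0 and 1 counts in control basal and 1, 8 and 23 in control EAE, so 1 EAE library was at the basal level. The ratio of its summed levels was 32.4 (95% interval 5.81 to 1278, from the exact Poisson interval of the basal count only). Csf3 was not called with no filter (edgeR, adjusted p = 0.11) or in DESeq2 (adjusted p = 0.0614).

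Of the 7 genes, then, 4 of the 5 that entered the test were higher at EAE in controls at an adjusted p below 0.05, and Csf2 and Csf3 did not enter it. Among all 18601 genes tested, 12.1% were higher by that rule. Both beta chains passed the filter on low counts in the fit to the basal libraries alone as well. Without cKO basal 2 and cKO EAE 3, Csf2ra passed as well, and the background was then 24.9%. Csf3 entered that fit through its EAE libraries and gave an adjusted p of 0.0177, although control EAE 1 held 1 count. Csf1r rose by 3.54 (SE 0.57, adjusted p = 0.00323), from 73.4 to 88.0 CPM in control basal to 816 to 1100 in control EAE. Il34, the other ligand of Csf1r, was at 16.1 to 17.5 CPM and 13.2 to 15.7 CPM, a log2 difference of -0.21 (SE 0.24, adjusted p = 0.664, edgeR).

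Cell type markers moved in the same libraries, and in bulk tissue fewer or more cells of a type and less or more RNA per cell cannot be told apart. The summed level of 8 monocyte and infiltrating macrophage markers was 42.1 to 70.1 CPM in control basal and 3221 to 5847 CPM in control EAE, and all 8 were called higher; F10 was at 0 in all 3 control basal libraries. Of 8 microglia markers 6 were higher (sum 205 to 219 against 1060 to 1116 CPM). All 10 T cell markers were higher (4.09 to 5.41 against 114 to 124 CPM), with Cd3g at 0 in control basal. Of 10 neutrophil markers, 9 were tested and 2 were higher, Cxcr2 and Mmp8, with sums of 19.5 to 40.8 and 127 to 155 CPM; Ly6g had at most 1 count in any basal library and 2, 10 and 6 in control EAE. These counts stand against 12.1% of all genes tested that were called higher. With the basal libraries alone, 3 of the 8 monocyte and macrophage, 3 of the 10 T cell and 5 of the 10 neutrophil markers passed the filter on low counts. The rest of those tested entered through their EAE libraries, which favours a call of higher. The part of these cells in the receptor values was not tested.

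Of the other lists, 3 of 5 tested dendritic cell markers, 1 of 2 tested B cell markers, 5 of 6 fibroblast and meningeal, 2 of 6 astrocyte and 1 of 6 endothelial markers were higher in control EAE, against 12.1% of all genes tested. In contrast 3 of 6 neuronal markers and 1 of 6 oligodendrocyte markers were lower, against 5.05% of all genes tested. Cd209a and Ccr7, which mark dendritic cells, were at 0 in every control basal library. With the basal libraries alone only 2 of 6 dendritic cell and 1 of 5 B cell markers passed the filter on low counts.

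The genes that surround these receptors were higher in controls at EAE in most cases, and the counts that follow stand against 12.1% of all genes tested. Among 6 other genes of the M-CSF and beta common families, 3 were tested and 2 were higher, Csf1r and the IL-3 receptor alpha chain Il3ra (2.57, SE 0.73); Il3 and Il5 had at most 1 and 6 counts over any group. Of 12 genes that induce GM-CSF or mark the T cells that make it, 10 were tested and 9 were higher. They included Il1b (9.79, SE 1.59), a cytokine that drives GM-CSF production, Bhlhe40 (1.06, SE 0.23), a transcription factor that such T cells need, Il2ra (4.02, SE 0.88), Ifng (5.62, SE 1.15), Tbx21 (3.6, SE 0.87) and Il12rb1 (2.81, SE 0.71). Il23a, a subunit of IL-23, had 0, 2 and 5 counts in control basal and 3, 3 and 8 in control EAE and was not tested. With the basal libraries alone only 4 of these 12 genes passed the filter on low counts. The rest of those tested entered through their EAE libraries, which favours a call of higher. Their count is therefore not on equal terms with the 12.1%.

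Of 18 signalling genes below the receptors, 14 were higher in control EAE, against 12.1% of all genes tested, with a median log2 difference of 2.35 against -0.01 over all genes tested. The feedback inhibitors Socs3 (6.44, SE 0.95) and Cish (2.41, SE 0.49), the latter a STAT5 target, were among them, as were the kinase Lyn (4.18, SE 0.64), the phosphatases Ptpn6 (5.13, SE 0.80) and Inpp5d (3.77, SE 0.61) and Stat3 (1.65, SE 0.26). Jak1, Stat5b, Grb2 and Gab2 were not called. Of 10 transcription factors of granulocytes and monocytes, 9 were tested and 8 were higher, with a median of 3.88; Spi1, which encodes PU.1, rose by 4.77 (SE 0.73), Runx1 by 5.11 (SE 0.74), Gfi1 by 6.59 (SE 1.16), Irf8 by 5.15 (SE 1.13), Irf4 by 3.88 (SE 0.81) and Cebpd by 3.45 (SE 0.70). Only 7 of these 10 transcription factors passed the filter on low counts with the basal libraries alone. The rest of those tested entered through their EAE libraries, which favours a call of higher. Their count is therefore not on equal terms with the 12.1%. Many of the signalling genes and transcription factors are expressed widely in myeloid cells or lymphocytes.

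In the cKO the 3 EAE libraries differed widely, for Csf2rb from 3.28 to 109 CPM. Csf2rb was at 0.64, 0 and 0.42 CPM in cKO basal and at 65.6, 109 and 3.28 CPM in cKO EAE 1, 2 and 3. Csf2rb2 was at 0.99, 0.82 and 1.01 CPM in cKO basal and at 38.8, 65.8 and 2.19 CPM in cKO EAE. Csf3r was at 9.07, 5.37 and 7.16 CPM in cKO basal against 38.3, 81.8 and 9.66 CPM in cKO EAE. For these 3 genes even cKO EAE 3 was above all cKO basal libraries, by the smallest margin for Csf3r; 9.8% of all genes had all 3 EAE libraries above. Csf1 overlapped between the groups, with 49.8, 30.4 and 35.1 CPM in cKO basal and 107, 131 and 47.4 CPM in cKO EAE. Csf2ra overlapped too, at 20.6, 1.09 and 31.5 CPM against 48.8, 80.9 and 29.4 CPM.

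None of the 5 tested genes passed in the cKO with all 12 libraries in edgeR, where 0.0376% of all genes passed (7 genes; 3643 had an unadjusted p below 0.05, and DESeq2 called 1174). The log2 differences were 7.25 for Csf2rb (SE 1.20, adjusted p = 0.0726), 5.22 for Csf2rb2 (SE 0.93, adjusted p = 0.0726), 2.58 for Csf3r (SE 0.59, adjusted p = 0.0767), 1.31 for Csf1 (SE 0.34, adjusted p = 0.0928) and 1.57 for Csf2ra (SE 0.77, adjusted p = 0.284). With no filter edgeR called Csf2rb, Csf2rb2 and Csf3r, against 1.41% of genes called higher. DESeq2 called 4 of the 5, all but Csf2ra, against 5.16% of genes called higher. Without cKO EAE 3 alone the same 4 passed in edgeR, against 5.4% of genes called higher. Without cKO basal 2 and cKO EAE 3, all 5 passed: Csf2rb rose by 7.33 (SE 0.40), Csf2rb2 by 5.68 (SE 0.33), Csf3r by 2.87 (SE 0.34), Csf1 by 1.48 (SE 0.20) and Csf2ra by 1.30 (SE 0.26, adjusted p = 0.00461), against 10.8% of all genes called higher.

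The ligands again gave few reads in the cKO. Csf2 had 4, 3 and 0 counts in cKO EAE 1, 2 and 3, 2.08-fold above the floor of 3 counts over the cKO basal group with the EAE counts taken as exact. Csf3 had 14, 2 and 0 against 0, 0 and 1. With no filter neither was called in edgeR (adjusted p = 0.32 for Csf2 and 0.409 for Csf3). None of the 4 pathway lists had a member called in the cKO with all 12 libraries. Without cKO basal 2 and cKO EAE 3, 13 of 18 signalling genes and 8 of 9 transcription factors were higher. So were 7 of 11 genes of the GM-CSF inducer list. In that fit 10.8% of all genes tested were called higher. Only 4 of the 12 inducer genes and 7 of the 10 transcription factors passed the filter on low counts with the basal libraries alone. The rest of those tested entered through their EAE libraries, which favours a call of higher. The counts for those lists are therefore not on equal terms with the 10.8%.

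**Figure D3:**
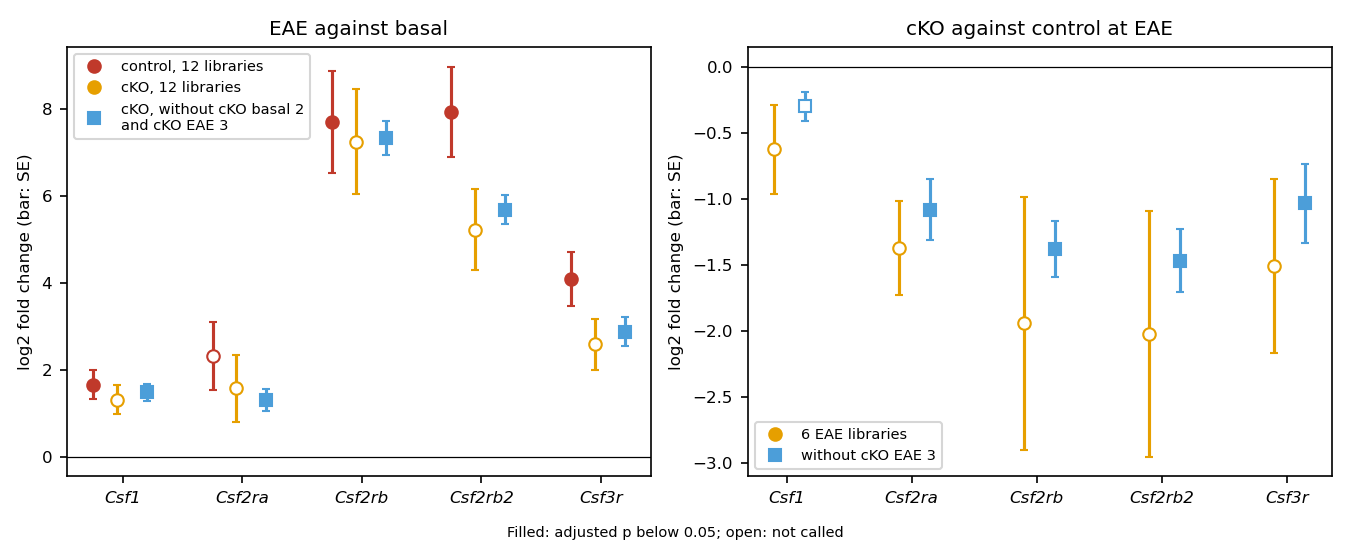
Log2 fold change (y axis, bars SE) of the 5 tested genes (x axis), EAE against basal on the left and cKO against control at EAE on the right; circles are the fits to all libraries, squares those without the libraries that stand apart, filled where the adjusted p is below 0.05. Values are positive throughout on the left and negative throughout on the right, and the bars are shorter without those libraries.

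Whether the EAE response differed between genotypes was tested as an interaction, cKO minus control, and no gene of the 18601 tested passed in edgeR (0%; 1697 had an unadjusted p below 0.05, and DESeq2 called 33). Csf2rb2 differed by -2.71 (SE 1.21, 95% interval -5.39 to -0.03), with an unadjusted p of 0.0478 and an adjusted p of 0.547 in edgeR. Csf3r differed by -1.50 (SE 0.80, adjusted p = 0.582), Csf2ra by -0.74 (SE 1.07), Csf2rb by -0.45 (SE 1.53) and Csf1 by -0.35 (SE 0.47). The intervals of these 4 spanned 0. Without cKO basal 2 and cKO EAE 3, Csf2rb2 differed by -2.26 (SE 0.50, adjusted p = 0.0943) and was not called either.

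At EAE, the cKO libraries held less of every receptor chain than the control libraries. For Csf1, Csf2ra, Csf2rb, Csf2rb2 and Csf3r, all 5 genes tested, the 3 cKO libraries were each below the 3 control libraries, an order found for 26.7% of all genes tested. The log2 differences were -1.37 for Csf2ra (SE 0.36, 95% interval -2.23 to -0.52, adjusted p = 0.0588), -1.94 for Csf2rb (SE 0.96, adjusted p = 0.189), -2.03 for Csf2rb2 (SE 0.93, adjusted p = 0.165), -1.51 for Csf3r (SE 0.66, adjusted p = 0.151) and -0.63 for Csf1 (SE 0.34, adjusted p = 0.219, edgeR). None was called, while 1.54% of all genes were called lower. The ligand Csf2, with 7 counts against 30, gave -1.99 with no filter (SE 0.75, adjusted p = 0.154, edgeR), and Csf3, with 16 against 32 counts, overlapped between the groups.

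Without cKO EAE 3 the differences were smaller but the spread much smaller, and 4 genes passed. Csf2ra fell by 1.08 on the log2 scale (SE 0.23, adjusted p = 0.0212), Csf2rb by 1.38 (SE 0.21, adjusted p = 0.015), Csf2rb2 by 1.47 (SE 0.24, adjusted p = 0.0151) and Csf3r by 1.04 (SE 0.30, adjusted p = 0.0459), while Csf1 at -0.30 (SE 0.11, adjusted p = 0.0883) did not pass. Of all genes tested 9.1% were called lower in that fit. Without cKO EAE 2, Csf2ra (adjusted p = 0.0252) and Csf3r (adjusted p = 0.0493) passed, against 7.9% of genes called lower. DESeq2 on all 6 libraries called Csf2ra (adjusted p = 0.00806), against 13.8%.

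Among the surrounding genes, Stat5b was the only gene of the 4 pathway lists called lower with all 6 libraries. This transcription factor, activated by these receptors, was lower by 0.51 on the log2 scale (SE 0.10, adjusted p = 0.0454, edgeR). In that fit 1.54% of all genes tested were called lower. The median log2 differences of the 4 lists ran from -1.62 to -1.20, so other genes fell without being called. Without cKO EAE 3, where 9.1% of all genes were called lower, 14 of 18 signalling genes were lower, Cish by 1.02 (SE 0.17) and Socs3 by 1.14 (SE 0.25) among them, together with 7 of 9 transcription factors, 3 of 11 genes of the inducer list (Il1b, Ifng and Il12rb1) and 1 of 3 in the list of related ligands and receptors, Il3ra.

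The cKO EAE libraries differed widely among themselves, and their order was the same for the 5 members tested. Csf2, with 4, 3 and 0 counts in cKO EAE 1, 2 and 3, and Csf3, with 14, 2 and 0, were highest in library 1. Relative to the control EAE mean, Csf2rb stood at 28.1%, 46.7% and 1.41% in cKO EAE 1, 2 and 3, and Csf2rb2 at 26.2%, 44.4% and 1.48%. Csf3r stood at 30.4%, 65.0% and 7.68%, Csf2ra at 34.7%, 57.5% and 20.9% and Csf1 at 71.0%, 87.1% and 31.4%. Library 2 was always the highest and library 3 always the lowest of the cKO EAE libraries for these 5 tested genes. Csf1r, at 36.9%, 71.3% and 9.27%, followed the same order, and Il34, at 66.3%, 105% and 98.7%, did not.

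The sums of monocyte and macrophage, T cell and microglia markers stood in the same order over these 3 libraries. Monocyte and infiltrating macrophage markers stood at 19.5%, 40.8% and 2.63% of the control EAE mean in cKO EAE 1, 2 and 3, T cell markers at 28.0%, 46.1% and 4.66% and microglia markers at 48.1%, 87.1% and 21.0%. Neutrophil markers stood at 127%, 72.7% and 42.4%, so in cKO EAE 1 their sum was above the control mean while Csf3r, the G-CSF receptor, was at 30.4%. The neutrophil list did not move as one. Mean CPM in control EAE and cKO EAE was 6.73 and 2.29 for Cxcr2 and 18.4 and 4.66 for Mmp8. It was 14.3 and 16.6 for Ngp and 8.77 and 10.4 for Ltf. Over the 9 neutrophil markers tested, the median log2 difference was 0.10 and none was called. The summed levels in cKO EAE ranged from 112 to 1742 CPM for monocyte and macrophage, 5.59 to 55.3 CPM for T cell, 228 to 945 CPM for microglia and 60.4 to 181 CPM for neutrophil markers, and no gene of these lists was at 0 in all 3 libraries. Their part in the lower receptor levels was not tested.

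**Figure D4:**
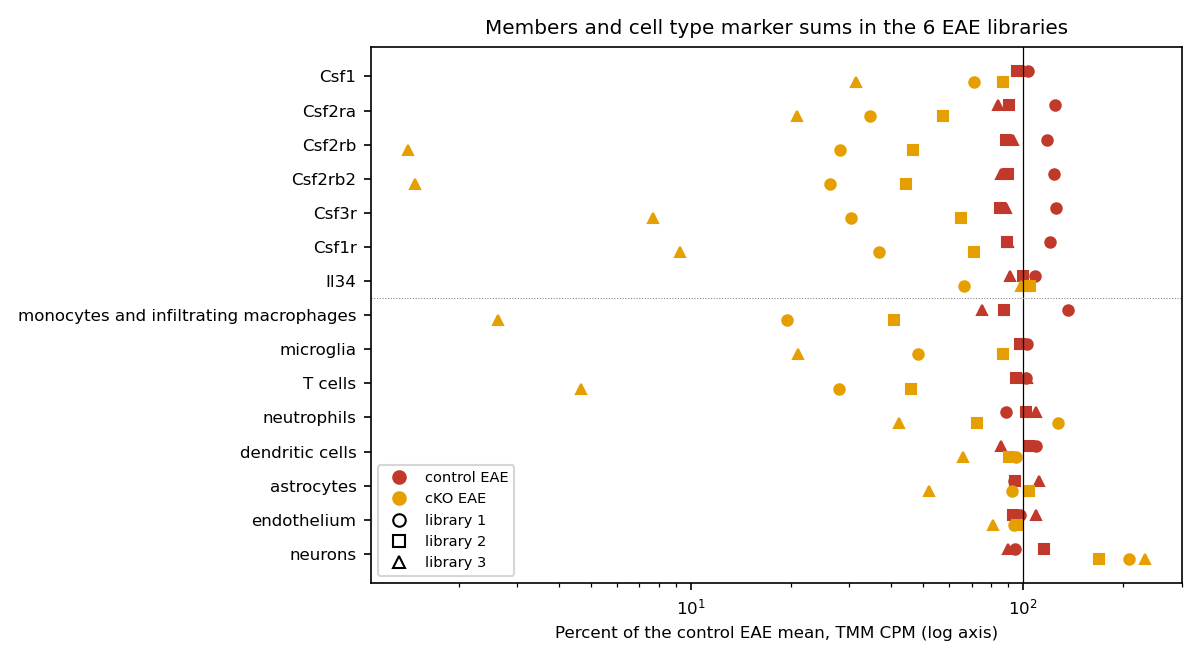
Level of 7 genes and of the summed markers of 8 cell types (y axis) in each of the 6 EAE libraries as a percentage of the control EAE mean (x axis, log scale); colour gives the genotype and shape the library. The beta chains in cKO EAE 3 lie furthest to the left at 1.41% and 1.48%, beside the monocyte and macrophage sum at 2.63%, and neuronal markers lie to the right of the controls.

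Ratios within a library do not depend on its total count and show which chains moved together. Csf2rb over Csf2ra counts was 0.013 to 0.051 in the 5 basal libraries with enough reads, 1.56, 1.62 and 1.84 in control EAE and 1.34, 1.35 and 0.11 in cKO EAE. Csf3r over Csf1r was 0.087 to 0.121 in the 6 basal libraries, 0.132 to 0.144 in control EAE and 0.114 to 0.126 in cKO EAE. Csf2ra over Csf1r was lower in control EAE (0.144 to 0.160) than in control basal (0.333 to 0.379), and in cKO EAE 3 it was 0.347, within the control basal range. In cKO basal 2 it was 0.019, because Csf2ra had 12 counts while Csf1r had 640.

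Relative to Csf1r, the beta chains were lower in cKO EAE than in control EAE and Csf1 was higher. Csf2rb over Csf1r was 0.25, 0.253 and 0.264 in control EAE and 0.195, 0.167 and 0.039 in cKO EAE, a mean log2 difference of -1.24. The difference was -1.27 for Csf2rb2, -0.22 for Csf3r and 0.98 for Csf1, and in each of these 4 ratios the groups did not overlap. An exact two-sided permutation test gave p = 0.1 for each of the 4, the smallest value that 3 against 3 libraries allow, and 0.125 after adjustment over the 5 ratios. Csf2ra over Csf1r overlapped (difference 0.26, exact permutation p = 0.9). Without cKO EAE 3 the differences were -0.50 for Csf2rb, -0.58 for Csf2rb2, -0.20 for Csf3r and 0.60 for Csf1, still with no overlap, and the difference for Csf2ra turned to -0.19, with overlap. How many of all genes separate in their ratio to Csf1r was not computed. In plain levels 26.7% of all genes tested had every cKO EAE library below control EAE, and 21.2% above. Csf1r itself stood at 36.9%, 71.3% and 9.27% of the control EAE mean, so a gene that fell less rose against it.

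Without disease, none of these genes was called different between cKO and control. No gene of 17133 passed in edgeR (0%; 31 had an unadjusted p below 0.05, and DESeq2 called 1). The log2 differences were -0.31 for Csf1 (SE 0.28), -0.67 for Csf2ra (SE 0.95), -1.58 for Csf2rb (SE 0.99), 0.65 for Csf2rb2 (SE 0.48) and -0.03 for Csf3r (SE 0.32). Without cKO basal 2 the differences were -0.17 for Csf1, -0.12 for Csf2ra (SE 0.20), -1.07 for Csf2rb (SE 0.55), 0.74 for Csf2rb2 and 0.13 for Csf3r. Csf2rb2 had all 3 cKO libraries above the 3 controls in TMM-scaled CPM, an order found for 2.14% of genes, at 9 to 17 counts per cKO library. Scaled by library totals alone, cKO basal 2 (0.59 CPM) lay below control basal 1 (0.71) and 2 (0.63), and the groups overlapped. The interval for Csf3r ran from -0.80 to 0.74, so a difference of that size is not excluded by these libraries.

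The genes with the nearest profiles over the 12 libraries were found among 14869 genes as those with the smallest root mean square difference in centred log2(CPM + 0.5). They were Itgax (0.25), Fcgr4 (0.29) and Ccr2 (0.29) for Csf2rb2, where Itgax encodes the integrin CD11c and Ccr2 a chemokine receptor of inflammatory monocytes. Csf2rb lay nearest to Lilrb4a (0.41), Steap4 (0.54) and Iigp1 (0.60), and Csf2ra to Adcy7 (0.25), Rnase4 (0.27) and Ucp2 (0.30). The nearest to Csf3r were Cd33 (0.15), a myeloid surface lectin, Gm5431 (0.17) and Gpr65 (0.17). Csf1 lay nearest to Lilra5 (0.14), Pbxip1 (0.15) and Slc14a1 (0.17), the last a urea transporter found in astrocytes. The added 0.5 CPM flattens the profiles of scarce genes. Lilra5 stood at 0.21 CPM in control basal and 1.64 in control EAE, and Gm5431 and Gpr65 at 0.26 and 0.17 CPM in control basal. Itgax, Fcgr4, Ccr2, Lilrb4a and Steap4 were below 0.5 CPM there too, so a small distance to these genes need not mean an equal fold change.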

How the data were processed

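Whole spinal cord RNA of 12 mouse libraries was analysed. The authors deposited raw read counts per gene (54532 genes, mm10); the submitters' processing notes name HISAT2 2.0.5 (alignment) and featureCounts 1.5.0-p3 (counting). Strand setting, multi-mapping, library kit and read length are not given in the sources used here. Totals were 15128913 to 17592105 counts, so 1 count was worth 0.055 to 0.091 CPM; intervals and floors from counts cover counting error only.

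Genes passing filterByExpr (minimum count 10, minimum total 15) were tested with edgeR 4.0.16 (R 4.3.3; TMM, quasi-likelihood F-test), with Benjamini-Hochberg adjustment over all genes tested and a threshold of 0.05. EAE against basal and the interaction came from 1 model of 12 libraries, and cKO against control from the 6 libraries of a condition. SE is the log2 fold change over the root of F. The test was tried on simulated counts. Alternatives were other scaling, no filter, a replicate block, DESeq2 1.42.0, other fit sets and each library left out.

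All 7 members were named in each comparison; per list at most 6 genes with the smallest p in controls were named, plus Csf1r, Il34, Cish, Socs3, Il1b, Il23a and Bhlhe40, and 3 nearest profiles per member with at least 1 CPM in a group. Stat5b, single markers and uncalled genes were named after their values were seen. Some genes of the lists are not reported here by name. Members, lists and tests were chosen with earlier results of these data known. Coding sequences were aligned with mafft 7.526.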

Additional observations from a re-analysis of the deposited data

How the results depend on the processing

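Depth limits Csf2 and Csf3, with at most 30 and 32 counts over a group; near-identical stretches limit the split between Csf2rb and Csf2rb2; and 3 libraries a group, 2 of which stand apart in the cKO, limit every genotype comparison. Of 400 member log2 fold changes recomputed under the alternatives, 368 kept their direction and side of the threshold, 28 passed only under the alternative, none stopped passing and 4 reversed. The reversed values were all small and uncalled: the interaction for Csf2rb was 0.22 without cKO basal 1 and 0.11 without cKO EAE 3 (range over left-out libraries -1.22 to 0.22), and the basal genotype difference of Csf3r was 0.13 without control basal 2 and 0.13 without cKO basal 2 (range -0.24 to 0.13).

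Counts of called genes moved more. For EAE against basal in controls (3183 genes) there were 8149 with the 6 control libraries alone, 8673 without cKO basal 2 and cKO EAE 3, and 1724 to 8166 with each library left out (8166 without cKO basal 2), with 4 to 6 members called. In the cKO (7 genes, 0 members) there were 493 genes and 3 members with no filter, 1174 and 4 with DESeq2, 0 genes with the 6 cKO libraries alone, 2715 and 5 without both libraries, and 5 to 1075 genes and 0 to 4 members with each left out (1075 and 4 without cKO EAE 3). DESeq2 called 33 genes for the interaction and 1 for the basal genotypes. For cKO against control at EAE (1374 genes, 1099 higher and 275 lower; 0 members) there were 0 genes with library totals or all 12 libraries, 1 member with no filter, 5373 genes (2907 higher, 2466 lower) and 1 member with DESeq2, and 0 to 3418 genes and 0 to 4 members with each library left out: 0 genes without any of the 3 control EAE libraries or cKO EAE 1, 3418 genes without cKO EAE 2 and 3336 without cKO EAE 3. In the fit of cKO against control at EAE with no filter, 1.39% of 32378 genes were called lower and 3.6% higher. The cause of these changes in count was not tested.

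With the replicate number as a block, 2509 genes were called for EAE in controls, 5 in the cKO and 0 in the other comparisons, cKO against control at EAE included, and no member call changed. Same-numbered libraries deviated together with correlations of -0.458 to 0.371, over 0.1 in 4 of 18 pairs, so the numbers were not taken to pair the libraries. Library totals moved the median log2 fold change of all genes to 0.17 for EAE in the cKO (from 0.08) and to -0.13 for the basal genotypes (from -0.02), and DESeq2 size factors moved it to -0.12 for the interaction (from -0.05).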
